A study of Mus musculus with 38 samples.

Results

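Son, Srrm2, U2surp, Pum2, Rrp12 and Xpo7 are 6 mouse genes that act on RNA or on traffic through the nuclear pore, and their messenger RNA was followed through 24 h of retinoic acid in Neuro2A cells, a mouse neuroblastoma line that puts out neurites when so treated. They were found by name among the 473 probes that the platform annotation ties to a gene, out of 576 probes on the array, and each of the 6 had 1 probe. The treated groups had 20 uM all-trans-retinoic acid in medium with 2% serum for 1 h (5 arrays), 3 h (5 arrays), 6 h, 12 h or 24 h (7 arrays each), and the 7 control arrays (0 h) held RNA taken after the 48 h of preculture in 10% serum that all groups shared. Per the labels, each replicate pooled several plates of this 1 cell line, and neither a vehicle control nor a control for the change of medium is named. Every comparison with 0 h therefore holds retinoic acid, lower serum and time in culture together. The labels do not say that replicates came from separate cultures, so p-values measure the spread between these arrays, which may be technical.

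Splicing removes introns from pre-messenger RNA in the spliceosome, and many of its factors gather in nuclear speckles. Son and Srrm2 are large speckle proteins rich in serine and arginine repeats that help to assemble the splicing machinery, and U2surp is a protein associated with the U2 small nuclear ribonucleoprotein, which recognises the branch point of an intron. The other 3 genes work elsewhere: Pum2 is a Pumilio protein that binds messenger RNAs in the cytoplasm and represses their translation and stability, Rrp12 is needed, as known mainly from yeast, for the maturation and nuclear export of ribosomal subunits, and Xpo7 is an exportin, a Ran-dependent carrier of proteins out of the nucleus. Pum2 is thus neither a splicing nor an export factor, and Xpo7 is not a known carrier of messenger RNA. Retinoic acid acts through nuclear receptors that bind paired copies of a hexamer in DNA.

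The 250 bases before the start of Son and of U2surp are shown because these were the only members below the control at 24 h by the test on the values as deposited. They are RefSeq sequences of build GRCm38.p6, printed 5′ to 3′ on the strand of the gene, for Son chr16:91647574-91647823 on the plus strand and for U2surp chr9:95511997-95512246 on the minus strand. Capitals mark the receptor hexamers, which were AGGTCA and its variant AGTTCA as well as GGGTCA and its variant GGTTCA, searched on both strands. No matches overlapped in the printed windows.
Son: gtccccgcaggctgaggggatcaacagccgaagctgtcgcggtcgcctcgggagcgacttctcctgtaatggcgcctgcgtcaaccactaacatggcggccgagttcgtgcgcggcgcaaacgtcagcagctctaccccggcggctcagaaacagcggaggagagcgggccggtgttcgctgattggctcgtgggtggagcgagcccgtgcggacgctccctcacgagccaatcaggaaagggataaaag
U2surp: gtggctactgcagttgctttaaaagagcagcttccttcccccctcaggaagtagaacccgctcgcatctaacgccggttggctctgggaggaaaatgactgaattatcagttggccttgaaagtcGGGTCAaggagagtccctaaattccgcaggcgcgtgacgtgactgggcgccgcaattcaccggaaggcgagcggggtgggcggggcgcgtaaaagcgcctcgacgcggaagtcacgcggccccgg
The U2surp window held 1 hexamer, GGGTCA, and the Son window held none. Of the members, 4 had an available sequence, with 7 windows between them because Srrm2 and Pum2 had several starts. The windows of Srrm2 overlapped each other, as did some of those of Pum2, so the 7 are not separate sequences. Of the 7 windows, 1 held a hexamer. Among all 32851 windows of this length, 38.6% held one. A direct repeat of 2 hexamers with a spacer of 1, 2 or 5 bases was in none of the 7 windows and in 0.426% of all windows. These are matches of letters only and were not tested for binding.

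Levels are given as log2 of the quantile-normalised intensity of the probe, a scale on which 1 unit is a doubling and on which levels of different probes cannot be compared. The arrays differed in range. Before normalization the middle 50% of probes on an array spanned 0.88 ± 0.16 log2 units at 24 h and 1.51 ± 0.22 in the controls (SD, n = 7 each). Over all 576 probes the 24 h change in deposited values fell with the mean level of the probe (r = -0.65 across probes, which are not independent), and after quantile normalization it did so little (r = -0.08). A call means a Benjamini-Hochberg adjusted p under 0.05 over all 576 probes in the moderated test of limma. Of the markers listed for Neuro2A and neurons, the array measured 6 of 26. None of the 6 was at the floor, the lowest value shared by most arrays, on any control array, and St18 was at it on 4 treated arrays. They moved in different directions at 24 h: Cyfip2 rose by a log2 change of 1.00 (limma adjusted p = 0.00485), Myt1 (0.36) and Syt11 (0.28) had higher means without passing the test, and Nefh (-0.31), St18 (-0.31) and Myt1l (-0.14) had lower means without passing it. Of 15 stromal and glial markers 2 were measured, Pxdn and Phldb1, and neither reached the floor. The summed deposited intensity of the neuronal markers, on the linear scale, ran from 6.67 to 10.0 at 24 h and from 7.43 to 11.8 in the controls, and that of the stromal and glial markers from 2.08 to 3.29 at 24 h and from 2.48 to 4.81 in the controls. The part of other cells in the results was not tested, and fewer cells of a type and less RNA per cell cannot be told apart in bulk samples.

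All 6 members had a lower mean at 24 h than in the controls, but none was called at any time on quantile-normalised values. The calls over all probes were 0% after 1 h, 0% after 3 h, 0.174% after 6 h, 0% after 12 h and 1.04% after 24 h, so 0 of 6 members is near the share over all probes. The 6 members had a median log2 change of -0.37 at 24 h, against -0.01 over all 576 probes, of which 300 were lower. At 6 h all 6 means were also lower, with a median change of -0.33. At 1, 3 and 12 h, 4 of the 6 were lower and 2 higher. These 5 comparisons share the 7 control arrays.

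**Figure D1:**
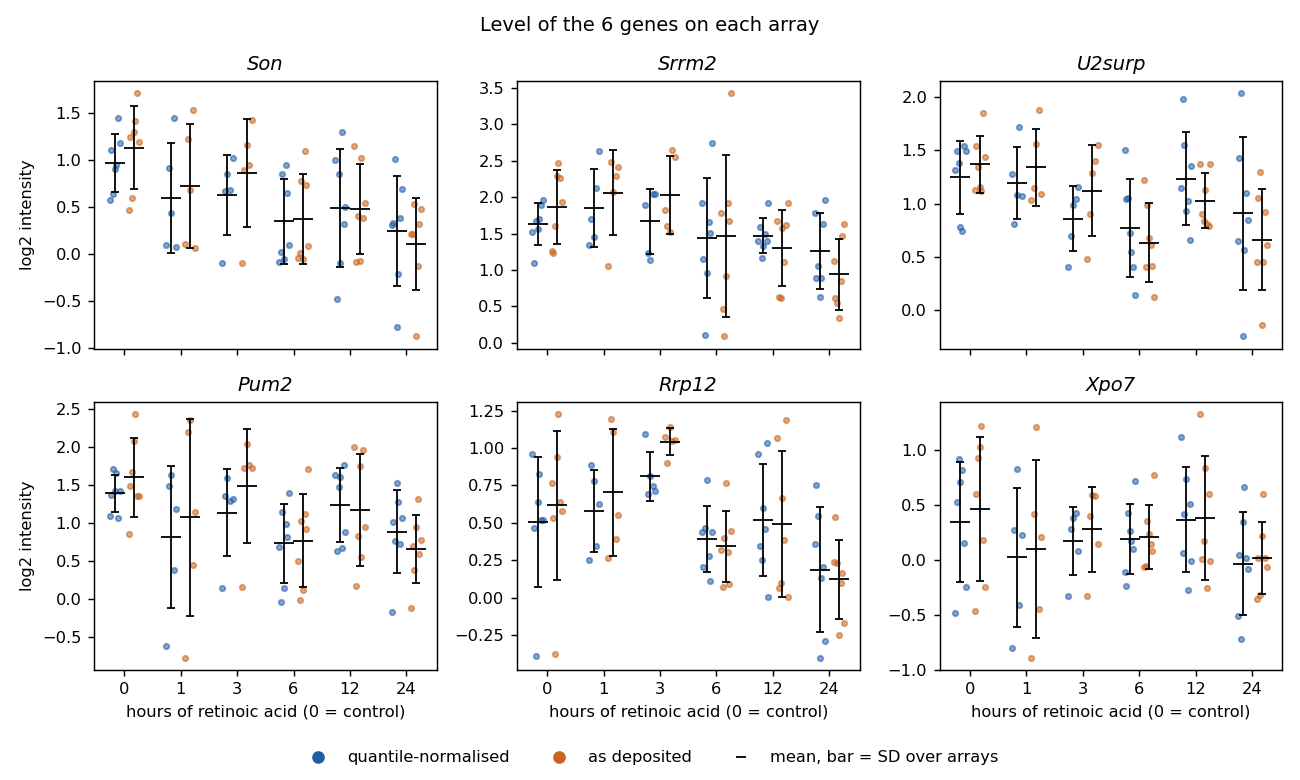
Log2 intensity of the probe of each gene (vertical axis) on every array by hours of retinoic acid, with 0 h the control; blue points are quantile-normalised values, orange points are values as deposited, and the black mark and bar give the mean and SD over 5 or 7 arrays. Quantile-normalised Son averaged 0.97 at 0 h and 0.24 at 24 h, and on that scale the arrays of the 6 times overlap for every gene. As deposited, Rrp12 at 3 h (lowest 0.90) lies above its arrays at 6 h (highest 0.77) and at 24 h (highest 0.54).

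Son had the lowest adjusted p of the 6 at 24 h, at 60.6% of its control level, but was not called. Its level at 24 h ran from -0.78 over a median of 0.33 to 1.00, and in the controls from 0.57 over 0.94 to 1.44. Of the 7 arrays at 24 h, 6 lay under the control mean and 5 under the lowest control array, while the highest at 24 h overlapped the controls. The log2 change was -0.72 ± 0.27 (SE; 95% interval -1.27 to -0.18; limma adjusted p = 0.399). At 6 h Son ran from -0.09 over 0.09 to 0.95, with all 7 arrays under the control mean and 4 under the lowest control (change -0.62 ± 0.27, limma adjusted p = 0.677). At 12 h it ran from -0.49 over 0.50 to 1.30. The 5 arrays at 1 h were at 0.10, 0.91, 0.43, 1.44 and 0.07. Those at 3 h were at -0.10, 0.67, 0.84, 0.68 and 1.02. Both early groups overlapped the controls, with 4 of 5 arrays under the control mean at each time. In order of the mean, the control stood highest at 0.97 ± 0.31, followed by 3 h (0.62 ± 0.43), 1 h (0.59 ± 0.58), 12 h (0.48 ± 0.63), 6 h (0.34 ± 0.45) and 24 h (0.24 ± 0.59).

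Srrm2, the other speckle protein, had means of 1.63 ± 0.29 in the controls, 1.85 ± 0.53 after 1 h, 1.67 ± 0.45 after 3 h, 1.44 ± 0.82 after 6 h, 1.47 ± 0.24 after 12 h and 1.26 ± 0.52 after 24 h. At 24 h its arrays ran from 0.63 over 1.06 to 1.97, and in the controls from 1.09 over 1.67 to 1.97. The 2 ranges shared their upper end, and 4 of the 7 arrays at 24 h lay under the lowest control (change -0.37 ± 0.27, limma adjusted p = 0.574). Its widest spread was at 6 h, from 0.11 over 1.51 to 2.74, so that this group held arrays on both sides of the controls. The early arrays included its highest levels outside 6 h. At 1 h they were at 1.34, 1.71, 1.46, 2.12 and 2.63, and at 3 h at 1.89, 1.23, 1.14, 2.04 and 2.04, with 2 arrays of each group above the highest control.

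U2surp had means of 1.25 ± 0.34 in the controls, 1.19 ± 0.34 after 1 h, 0.86 ± 0.30 after 3 h, 0.77 ± 0.46 after 6 h, 1.24 ± 0.44 after 12 h and 0.91 ± 0.72 after 24 h. Its course was not steadily downward, since the 12 h mean was at 99.1% of the control level. The lowest mean was that of 6 h, where arrays ran from 0.14 over 0.72 to 1.51 and the controls from 0.74 over 1.38 to 1.54 (change -0.47 ± 0.25, limma adjusted p = 0.791). At 24 h they ran from -0.25 over 0.85 to 2.04, so that 3 of 7 lay under the lowest control and 1 above the highest (change -0.34 ± 0.25, limma adjusted p = 0.574). Without replicate 3 of that time the change was -0.53, and without replicate 4 it was -0.15. The 1 h arrays were at 1.28, 0.81, 1.08, 1.72 and 1.07. Those at 3 h were at 0.41, 0.70, 0.99, 1.04 and 1.16, all under the control mean.

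Pum2, the translational repressor, had means of 1.39 ± 0.25 in the controls, 0.81 ± 0.94 after 1 h, 1.14 ± 0.57 after 3 h, 0.73 ± 0.52 after 6 h, 1.24 ± 0.49 after 12 h and 0.88 ± 0.54 after 24 h. Its 24 h arrays ran from -0.17 over 1.01 to 1.52, and its controls from 1.07 over 1.41 to 1.71. At 24 h, 5 of 7 arrays lay under the lowest control (change -0.50 ± 0.29, limma adjusted p = 0.565), and at 6 h also 5 of 7 (range -0.04 to 1.39; change -0.65 ± 0.29, limma adjusted p = 0.766). Single early arrays stood low. At 1 h they were at -0.62, 1.49, 1.63, 0.38 and 1.19, and at 3 h at 0.14, 1.35, 1.58, 1.28 and 1.31. The 1 h change was -0.57 with all arrays and -0.22 without replicate 1 of that time, and neither was called. The 3 h change was -0.25 with all arrays and -0.0048 without replicate 1 of that time.

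Rrp12, the ribosome biogenesis factor, had means of 0.51 ± 0.43 in the controls, 0.58 ± 0.27 after 1 h, 0.81 ± 0.16 after 3 h, 0.39 ± 0.22 after 6 h, 0.52 ± 0.37 after 12 h and 0.19 ± 0.42 after 24 h. The 3 h arrays, at 1.09, 0.69, 0.81, 0.74 and 0.72, all lay above the control mean, and 1 lay above the highest control (change 0.30 ± 0.20, limma adjusted p = 0.990; 0.16 without control replicate 3). The 1 h arrays were at 0.25, 0.89, 0.78, 0.34 and 0.63. At 24 h its arrays ran from -0.40 over 0.21 to 0.75, and in the controls from -0.39 over 0.52 to 0.96. That lowest control stood apart from the other 6, and 1 of 7 arrays at 24 h lay under it (change -0.32 ± 0.18, limma adjusted p = 0.565).

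Xpo7, the exportin, was the only member to reach the floor, on 1 array at 1 h. Its means were 0.34 ± 0.55 in the controls, 0.02 ± 0.64 after 1 h, 0.17 ± 0.31 after 3 h, 0.19 ± 0.32 after 6 h, 0.36 ± 0.48 after 12 h and -0.03 ± 0.47 after 24 h. At 24 h its arrays ran from -0.72 over 0.02 to 0.67, and in the controls from -0.49 over 0.53 to 0.92, with 2 of 7 at 24 h under the lowest control (change -0.38 ± 0.25, limma adjusted p = 0.565). The 1 h arrays were at -0.80, 0.27, 0.83, -0.41 and 0.22, and the 3 h arrays at -0.33, 0.28, 0.38, 0.43 and 0.08. No group of Xpo7 was separate from the controls.

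The F test over the 5 times against the control called no member (limma adjusted p = 0.767 for Rrp12 and 0.918 for each of the others), with 1.04% of all probes called. No step between neighbouring times passed the test for any member, with 0% of all probes called. Within the treated arrays, the mean of 12 and 24 h was set against the mean of 1 and 3 h, since all of these had the change of medium, though at different times before RNA was taken. None of the 6 was called, with 0.347% of all probes called. Rrp12 was lower late than early by a log2 change of -0.34 ± 0.14 (limma adjusted p = 0.319) and Srrm2 by -0.39 ± 0.21 (limma adjusted p = 0.359). Son changed by -0.24 ± 0.21 late against early, while U2surp (0.05), Pum2 (0.09) and Xpo7 (0.07) were close to 0.

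On the values as deposited the members' 24 h changes were larger, and some members were called, as given by contrast below with the share over all probes. At 24 h Son and U2surp fell, 2 of 6 members where 1.91% of all probes were called and 1.39% were called lower. Son was at 49.2% of its control level on the deposited scale, from -0.88 over 0.21 to 0.53 at 24 h and from 0.47 over 1.24 to 1.71 in the controls (log2 change -1.02 ± 0.26, limma adjusted p = 0.0256). All 7 arrays at 24 h were under its control mean, and their upper end reached just into the control range. U2surp was at 61.3%, from -0.14 over 0.61 to 1.29 at 24 h and from 1.12 over 1.34 to 1.85 in the controls, with 6 of 7 arrays under the lowest control (log2 change -0.71 ± 0.19, limma adjusted p = 0.0430). For Srrm2 the deposited 24 h change was -0.93 ± 0.34 (limma adjusted p = 0.105) and for Pum2 -0.94 ± 0.37 (limma adjusted p = 0.132). Rrp12 changed by -0.49 ± 0.20 (limma adjusted p = 0.132) and Xpo7 by -0.45 ± 0.27 (limma adjusted p = 0.335). The members' median was -0.82, against 0.09 over all probes and -0.0061 over the 477 probes that were at the floor on at most 50% of arrays. Over the 23 other RNA genes described further on the median was -0.29. The members stood high on the deposited scale. Their control means ran from 0.46 for Xpo7 to 1.87 for Srrm2, where the array medians ran from -0.26 to -0.03. Since the deposited 24 h change fell with the level of a probe (r = -0.65), these medians are not of probes of like level. The part of level in the members' median was not tested.

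Between late and early treated arrays as deposited, Srrm2 fell by 0.93 (SE 0.27, limma adjusted p = 0.0199) and Rrp12 fell by 0.56 (SE 0.15, limma adjusted p = 0.0136) on the log2 scale. These were 2 of 6 members where 13.5% of all probes were called and 6.25% were called lower. Rrp12 was at 0.50 ± 0.49 at 12 h and 0.12 ± 0.27 at 24 h, against 0.70 ± 0.42 at 1 h and 1.04 ± 0.09 at 3 h. Srrm2 was at 1.30 ± 0.52 at 12 h and 0.94 ± 0.49 at 24 h, against 2.06 ± 0.59 at 1 h and 2.03 ± 0.54 at 3 h. In the deposited F test U2surp alone of the 6 was called (limma adjusted p = 0.0406; 2.95% of all probes), with Rrp12 at 0.0714 and Son at 0.114. No member was called as deposited at 1 h (0% of all probes), 3 h (0.174%), 6 h (0.347%) or 12 h (0.174%), nor in a neighbouring step (0%). At 6 h U2surp came nearest, with 7 of 7 arrays under the control mean (log2 change -0.74 ± 0.19, limma adjusted p = 0.103). The part of the range of the arrays in these calls was not tested.

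**Figure D2:**
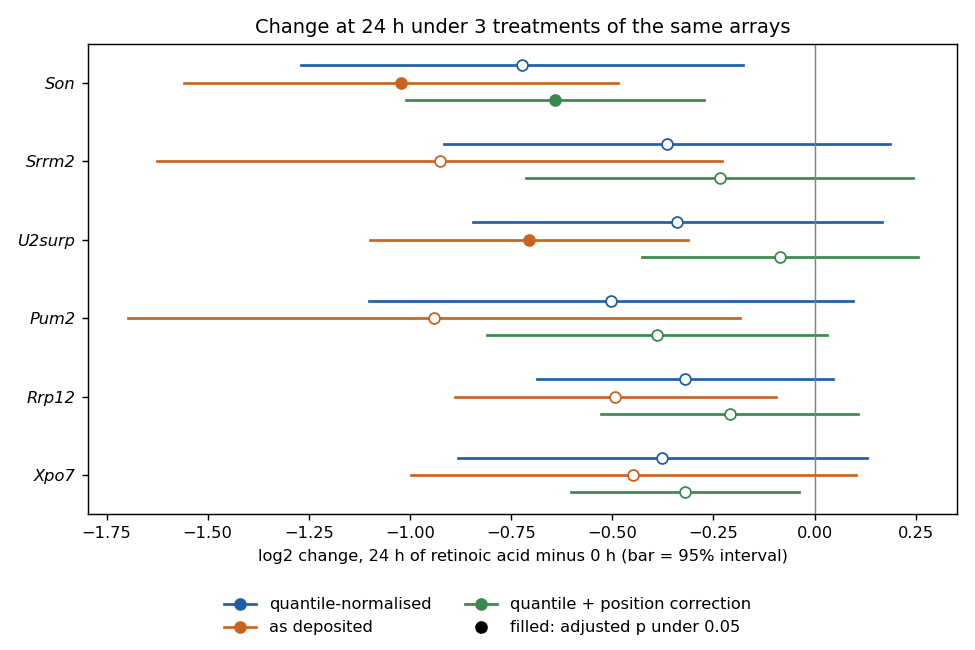
Log2 change at 24 h against the control (horizontal axis) of the 6 genes with 95% intervals, on quantile-normalised values (blue), values as deposited (orange) and quantile-normalised values with a correction for probe position (green); filled points are calls. All 18 changes lie below 0, from -1.02 for Son as deposited to -0.09 for U2surp after the position correction.

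The splicing factors differed from the other 3 genes by less than the spread between arrays on quantile-normalised and deposited values. After the position correction described further on, the means after 3 and 6 h exceeded the SD of their own group but not that of the controls. Per array, the mean of Son, Srrm2 and U2surp minus the mean of Pum2, Rrp12 and Xpo7 was taken and set to 0 at the control mean, as a description with no test. The SD is the spread of single arrays and not the error of a mean. A mean smaller than its SD therefore does not show that the sets were alike. On quantile-normalised values it was 0.20 ± 0.72 after 1 h, -0.19 ± 0.27 after 3 h, -0.12 ± 0.32 after 6 h, -0.18 ± 0.56 after 12 h and -0.08 ± 0.69 after 24 h (SD over arrays), where the controls themselves had an SD of 0.38. At 24 h the splicing factors averaged -0.48 and the others -0.40 below their controls. As deposited the difference was 0.19 ± 0.74 after 1 h, -0.16 ± 0.33 after 3 h, -0.18 ± 0.28 after 6 h, -0.31 ± 0.49 after 12 h and -0.26 ± 0.52 after 24 h, and the 24 h changes were -0.89 for the splicing factors and -0.63 for the others. At every time and on both of these scales the mean difference was smaller than its SD over arrays. After the position correction it was 0.18 ± 0.27 after 1 h, -0.12 ± 0.096 after 3 h, -0.18 ± 0.12 after 6 h, -0.057 ± 0.19 after 12 h and -0.013 ± 0.46 after 24 h. The means after 3 and 6 h thus exceeded the SD of their own group, and all 7 arrays at 6 h lay below 0 (from -0.34 to -0.026). The controls on that scale had an SD of 0.22 and ran from -0.21 to 0.25, so no mean exceeded the control SD. Of the 8 arrays that never reach the floor, 4 were among the 7 at 24 h and none were controls. Without these 8 the 24 h difference was -0.54, which rests on the few arrays left at 24 h. With array quality weights the 1 h difference was -0.30. As deposited, Son and U2surp were called at 24 h (1.91% of all probes), and Srrm2 and Rrp12 late against early (13.5% of all probes). U2surp was also called in the F test (2.95% of all probes). A division of these calls between splicing factors and the others was not tested.

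**Figure D3:**
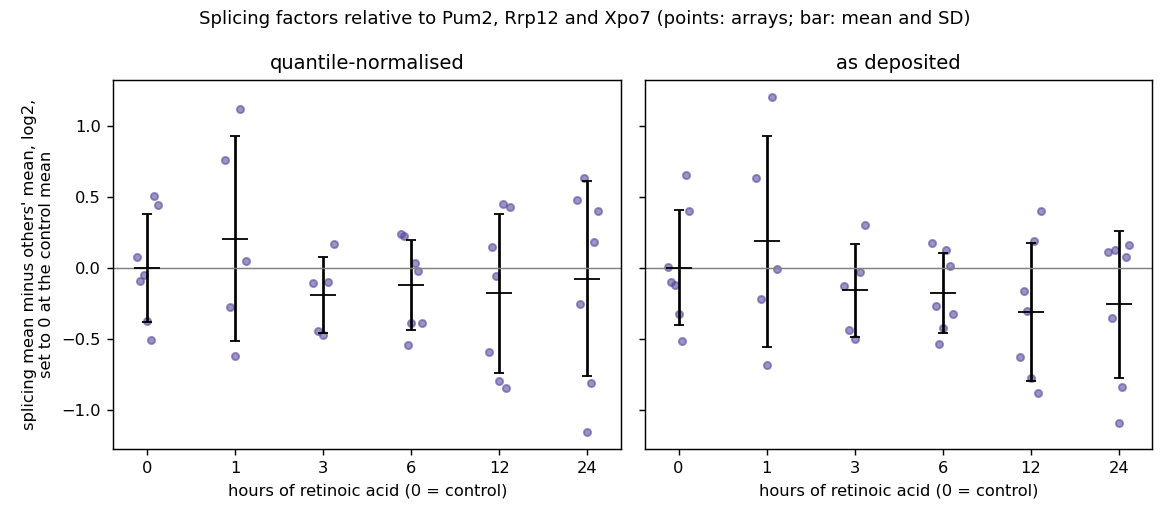
Mean log2 level of the 3 splicing factors minus that of Pum2, Rrp12 and Xpo7 on each array (points), set to 0 at the control mean, by hours of retinoic acid, on quantile-normalised values (left) and values as deposited (right); bars give the mean and SD. Each group's arrays lie on both sides of 0, and the 24 h mean is -0.08 on the left and -0.26 on the right.

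Of 299 other symbols of RNA processing, export, ribosome biogenesis and RNA decay, the array measured 23, and none was called in any contrast against 0 h or late against early on quantile-normalised values, on deposited values or after the position correction. At 24 h 16 of the 23 were lower and 7 higher, with a median log2 change of -0.14. By list, 6 of 7 splicing genes were lower (median -0.20), as were 3 of 5 export and nuclear pore genes (-0.31), 3 of 3 ribosome biogenesis genes (-0.09, of which Rrs1, at the floor on 21 arrays, had -0.016, and 0.16 as deposited) and 4 of 8 genes of RNA decay, 3′ ends and translation control (-0.04). The 6 with the smallest p at 24 h were Rbm10, a splicing regulator (-0.50 ± 0.26), Virma, a subunit of the m6A methyltransferase complex (-0.40 ± 0.22), Helz, a helicase (0.55 ± 0.32), Xpo5, the exportin of microRNA precursors (-0.32 ± 0.21), Tnrc6b, a microRNA silencing protein (-0.17 ± 0.13), and R3hdm2 (-0.41 ± 0.33), with limma adjusted p between 0.565 and 0.601. Rbm10 was at the floor on 6 arrays.

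Pum2 and Xpo7 went up and down together over the 38 arrays, more closely than any other pair of members. Their log2 levels had a Pearson correlation of 0.77 and a Spearman rho of 0.81, each with a two-sided permutation p of 1e-05, the smallest that the permutations can give, and 0.00015 after adjustment over the 15 pairs of members. Without the 2 arrays farthest from the Pum2 median the correlation was 0.70, within groups it was 0.77, and as deposited 0.84. In the 6 groups taken alone it lay between 0.71 at 24 h and 0.95 at 1 h. Their probes are numbered 40 and 15, which is 25 apart. Probes 25 apart had a median within-group correlation of 0.49, as described next. The permutation shuffled values over all 38 arrays and took no account of this. Its p therefore compares with no correlation at all and is no sign of a link between the 2 genes. Son and U2surp followed with a correlation of 0.37 (permutation p = 0.0206, adjusted 0.154) and a rho of 0.35 (permutation p = 0.0316, adjusted 0.237).

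Probes with near numbers varied together in general. Among the 477 probes that were at the floor on at most 50% of arrays, the within-group correlation of 2 probes had a median of 0.60 for neighbours in number, 0.39 at a distance of 2, 0.21 at 12, 0.58 at 24, 0.49 at 25 and 0.42 at 48, against -0.01 over all pairs. That is the pattern of a grid 24 probes wide. The layout is inferred from the values and is not given in the labels. On that grid Pum2 and Xpo7 are diagonal neighbours. The median correlation with adjacent probes was 0.75 for Xpo7 (4 probes), 0.66 for Son (6), 0.63 for Pum2 (6), 0.58 for U2surp (5), 0.53 for Rrp12 (6) and 0.29 for Srrm2 (5), against -0.03 to -0.01 with the rest.

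**Figure D4:**
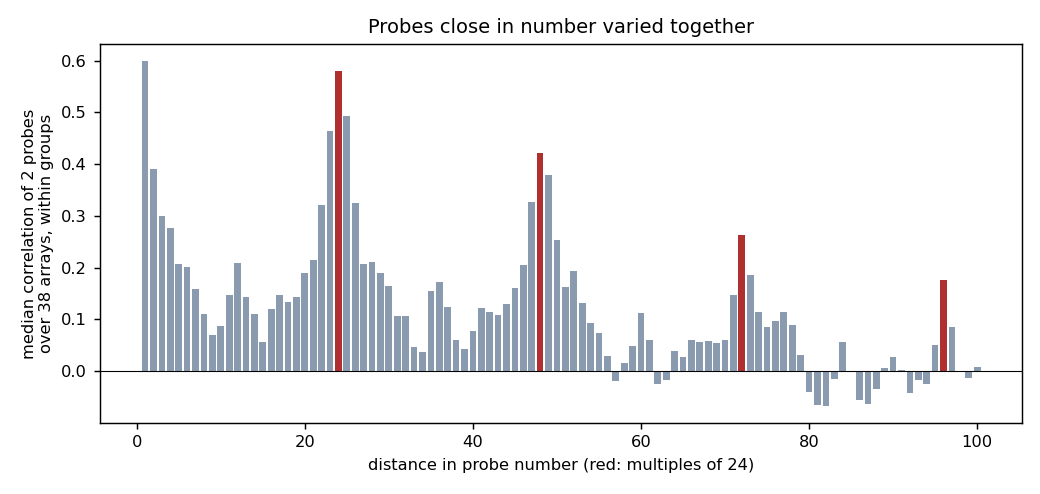
Median correlation of 2 probes over the 38 arrays within groups (vertical axis) by their distance in probe number (horizontal axis), with multiples of 24 in red. The median is 0.60 at a distance of 1, 0.21 at 12, 0.58 at 24 and 0.42 at 48.

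A correction for position, added after this was seen, subtracted on each array the median deviation of the probes within 2 rows and 2 columns. It left the Pum2 and Xpo7 correlation at 0.31 and that of Son and U2surp at 0.09. Pum2 and Xpo7 lie within 2 rows and 2 columns of each other, so each was among the probes whose median was subtracted from the other. Part of the fall in their correlation can come from this, and the size of that part was not tested. With it Son fell at 24 h, at 64.1% of its control level, with 7 of 7 arrays under the control mean and 6 under the lowest control (log2 change -0.64 ± 0.18, limma adjusted p = 0.0409). It was the only member called there, where 3.30% of all probes were called and 1.04% were called lower. U2surp was then at -0.09 ± 0.17 (limma adjusted p = 0.899), Srrm2 at -0.23 ± 0.24 (0.755), Pum2 at -0.39 ± 0.21 (0.484), Rrp12 at -0.21 ± 0.16 (0.646) and Xpo7 at -0.32 ± 0.14 (0.270). The adjacent probes themselves had a median quantile-normalised 24 h change of -0.16 around Son (6 of 6 lower) and -0.32 around U2surp (5 of 5 lower), beside -0.72 for Son and -0.34 for U2surp. After the correction no member was called at 1 h (0% of all probes), 3 h (0.174%), 6 h (0.174%) or 12 h (0.521%), late against early (3.99%), in a neighbouring step (0%) or in the F test (1.91%).

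For each member the 2 named probes of other genes with the most similar levels over the 38 arrays were listed by Pearson correlation of quantile-normalised values. They were Dcaf1 (0.80) and Fam160b1 (0.71) for Son, Tenm3 (0.77) and Otud4 (0.69) for Srrm2, and Fbxo28 (0.79) and Fbxw11 (0.79) for U2surp. Pum2 had Xpo7 (0.77) and Slc39a10 (0.74), Rrp12 had Tmem181a (0.72) and Dhx16 (0.66), and Xpo7 had Pum2 (0.77) and Pprc1 (0.76). Within groups these correlations lay between 0.61 (Dhx16 with Rrp12) and 0.83 (Dcaf1 with Son), so they do not show a shared course over time. Of the 12, 9 lay within 2 rows and 2 columns of the member on the inferred grid. Of the 3 that lay farther away, Dcaf1 was 3 columns from Son in the same row, and Tenm3 was 3 rows from Srrm2 in the same column. Both lay just outside the area used by the position correction. Probes 3 apart in number still had a median within-group correlation of 0.30, and probes 72 apart 0.26. Pprc1 was 1 row and 6 columns from Xpo7. After the correction Dcaf1 with Son was at 0.67, Tenm3 with Srrm2 at 0.72 and Pprc1 with Xpo7 at 0.35.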

How the data were processed

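Poly(A)+ RNA was labelled with Cy5 and hybridised to mouse KIAA oligonucleotide arrays, 1 colour per array, per the labels' protocols. The deposited values were linear intensity values of 576 probes on 38 arrays, with a floor of 0.54 that 8 arrays never reached. The authors' background correction and scaling are not stated in any label or file read. The deposited intensity was taken to log2 and quantile normalised, because array medians differed by 0.23. All probes were fitted with limma 3.58.1 (R 4.3.3) on the 6 groups, with 32 residual degrees of freedom, tested on simulated data first. The median SE at 24 h over all 576 probes was 0.18, and the number of arrays limits the precision. Arrays were grouped by their titles, and none were identical. Every member was named in every contrast, along with the 6 other RNA genes with the smallest p at 24 h. Members and lists were chosen with earlier results of these data known. Other scalings, filters, variances, weights and a replicate block were tried, and the position correction was added after seeing the data. RefSeq tables (GRCm38.p6) gave names and sequences.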

Additional observations from a re-analysis of the deposited data

Results flagged for a closer look

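Of 36 groups of arrays (6 genes at 6 times), 2 held an array far from the others, by its gap over the range of its group. Chance flags about 1 group in 20. Pum2 on replicate 1 at 3 h was at a log2 level of 0.14, where the nearest of the other 4 arrays was at 1.28 and the highest at 1.58. Rrp12 on control replicate 3 was at -0.39, where the nearest of the other 6 was at 0.47 and the highest at 0.96.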

How the results depend on the processing

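The 13 alternatives left the count of called members at 0 at 1, 3 and 6 h and between neighbouring times. At 24 h, 2 members (Son and U2surp) were called as deposited, with median centring and without the 8 arrays that never reach the floor, 1 (Son) with the position correction on quantile-normalised or deposited values, and 2 (Son and Xpo7) with that correction and array quality weights, which also called 1 (Son) at 12 h. Late against early, 2 were called as deposited (Srrm2 and Rrp12), 3 with median centring (with U2surp), 1 with weights (Rrp12), 2 with position correction and weights (Son and Rrp12) and 3 with position correction on deposited values (Son, Srrm2 and Rrp12). The F test called 1 as deposited and with median centring (U2surp), 1 with weights (Pum2), 1 with position correction and weights (Son) and 2 with position correction on deposited values (Son and Rrp12). The causes were not tested. As deposited, 13.5% of all probes were called late against early and 2.95% in the F test. For the other alternatives that called members at 12 h, late against early or in the F test, the share over all probes is not given here. Those counts can therefore not be read as a result about the members. The 24 h change of Son lay between -1.33 and -0.42 over the 13 alternatives (limma adjusted p from 0.00521 to 0.628) and was called in 6. Its -1.33 came without the 8 arrays that never reach the floor. Since 4 of the 7 arrays at 24 h are among those 8, the 24 h values and calls of that setting rest on few arrays. With trended and robust variances no member was called. Over all probes, 6 calls at 24 h became 11 as deposited (3 higher, 8 lower), 12 with median centring (3 higher, 9 lower), 63 with trended and robust variances (7 higher, 56 lower), 11 without the arrays above the floor, 2 with the array range as covariate, 19 with position correction, 40 with weights added and 49 on deposited values.

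Over the values of single members under these alternatives, 410 kept direction and side of the threshold, 21 crossed it in the same direction and 37 changed sign. Late against early, U2surp turned to -0.39 as deposited, -0.46 with median centring, -0.39 without the arrays above the floor, -0.45 with range as covariate and -0.30 with position correction on deposited values. Late against early, Pum2 turned to -0.36 as deposited, -0.43 with median centring, -0.23 with weights, -0.057 with position correction, -0.23 with weights added and -0.37 on deposited values, and Xpo7 to -0.061 with median centring, -0.14 with weights, -0.15 with position correction and -0.19 with weights added. At 12 h Rrp12 turned to -0.12 as deposited, -0.15 with median centring, -0.017 with position correction and weights and -0.20 on corrected deposited values, and Xpo7 to -0.081 as deposited, -0.11 with median centring, -0.11 with position correction and -0.22 with weights added. Pum2 turned to 0.065 at 1 h and 0.048 at 12 h with weights and to 0.070 at 12 h with range as covariate. Weights alone gave -0.10 for Srrm2 at 3 h and 0.00077 for Xpo7 at 1 h. At 6 h Xpo7 turned to 0.057 with range as covariate, 0.10 with position correction and 0.22 on corrected deposited values. Srrm2 at 12 h was 0.050 with position correction, and U2surp was 0.020 at 1 h and 0.0064 at 12 h with it, 0.064 at 1 h on corrected deposited values, and 0.087 at 12 h and 0.051 at 24 h with weights added.

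Leaving out 1 array in turn called no member in any contrast, and Son at 24 h stayed between -0.86 and -0.56 (limma adjusted p from 0.198 to 0.644). Signs turned within -0.056 to 0.16 for Srrm2 at 3 h, -0.41 to 0.026 at 6 h, -0.19 to 0.041 for U2surp at 1 h, -0.14 to 0.083 at 12 h and -0.047 to 0.15 late against early, -0.095 to 0.19 for Pum2 late against early, -0.078 to 0.15 for Rrp12 at 1 h and -0.14 to 0.0997 at 12 h, and -0.12 to 0.13 for Xpo7 at 12 h and -0.033 to 0.17 late against early. Replicate numbers shared between groups paired the arrays weakly at most. Same-numbered arrays of different groups had a median correlation of deviations of 0.05 (35 of 87 pairs over 0.1), against -0.0037 for the 512 pairs with other numbers. Of the 38 arrays, 10 correlated best with an array of their own number. With the replicate block Son at 24 h was at -0.72 (limma adjusted p = 0.385), and 0 members were called. Background correction and slide could not be varied, and the F test on only the arrays compared is the same fit.

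There were 5 to 7 arrays a group, 1 probe a gene and no measure of spot background. Over all 576 probes the median SE of a quantile-normalised log2 change at 24 h was 0.18. For the members this SE lay between 0.18 (Rrp12) and 0.29 (Pum2).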
